A study of Mus musculus with 12 samples.

Results

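Immediate early genes were examined in perigonadal fat of mice that gained or lost the insulin-responsive glucose transporter Glut4. The set held 10 genes, Fos, Fosb, Jun, Junb, Egr1, Ier2, Atf3, Dusp1, Nr4a1 and Zfp36, which are also known to respond to tissue handling. Every probe set that the platform annotation gives to exactly 1 of these genes was taken, which gave 15 of the 12422 probe sets on the array. The single-gene probe sets of the array name 8251 genes. All 10 genes of the set were represented, and 12 of the 15 probe sets, at least 1 for each gene, were bright enough to be tested.

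The 12 arrays, 1 per mouse, came from females labelled as 6 months old and fed ad libitum. The groups of 3 were overexpressors carrying Glut4 under the aP2 promoter, with FVB littermates as their controls, and adipose-specific Glut4 knockouts, with aP2-Cre transgenic animals as theirs, the knockouts and these controls being on a mixed C57B6/FVB/SV129 background. The aP2 promoter serves in the labels as the driver for fat, and it is known to be active in some other cells, macrophages among them. Time of day, the interval from death to freezing and the order of dissection are unstated in the labels. Values are array intensities on a linear scale, and each mutant group was set only against its own controls, since the smallest deposited intensity was 21.9 on all arrays of the overexpressor line and 22.27 on all arrays of the knockout line.

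Immediate early genes are transcribed within minutes of a stimulus, without new protein synthesis, by factors that already sit on their promoters. Growth factors, calcium, cyclic AMP, cell stress and mechanical injury all induce them through kinase cascades that end on SRF with its Elk partners and on CREB. Their products are transcription factors (the Fos and Jun proteins of AP-1, Egr1, Atf3, Nr4a1) and brakes on the same response, such as the phosphatase Dusp1 and the mRNA-destabilising protein Zfp36. In dissected tissue they can move between the animal's death and freezing.

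Promoter windows for 8 of the 10 genes were found in the set of RefSeq promoter windows used (build GRCm38.p6). That set held none for Egr1 or Ier2, though both are RefSeq genes. They are shown for Fos, Junb and Atf3, each of which had a tested probe set at least 1.5-fold above all other arrays of its line on overexpressor control 1, and for Dusp1, which did not. Each is the 250 bases before the annotated start, 5′ to 3′ on the gene's strand. Capitals mark TGACG or its reverse complement CGTCA, the 5-base core of the cyclic AMP response element, and TATAAA.
Fos, chr12:85473640-85473889, plus strand: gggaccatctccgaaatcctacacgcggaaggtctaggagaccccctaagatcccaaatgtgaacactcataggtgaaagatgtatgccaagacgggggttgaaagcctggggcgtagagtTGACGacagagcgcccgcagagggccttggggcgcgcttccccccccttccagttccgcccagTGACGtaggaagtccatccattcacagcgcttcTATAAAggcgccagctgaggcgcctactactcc
Junb, chr8:84978749-84978998, minus strand: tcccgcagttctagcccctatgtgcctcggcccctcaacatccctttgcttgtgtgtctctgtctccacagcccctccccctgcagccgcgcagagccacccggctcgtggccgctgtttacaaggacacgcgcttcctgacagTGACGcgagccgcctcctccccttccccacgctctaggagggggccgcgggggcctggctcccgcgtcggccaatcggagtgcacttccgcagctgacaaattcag
Atf3, chr1:191183334-191183583, minus strand: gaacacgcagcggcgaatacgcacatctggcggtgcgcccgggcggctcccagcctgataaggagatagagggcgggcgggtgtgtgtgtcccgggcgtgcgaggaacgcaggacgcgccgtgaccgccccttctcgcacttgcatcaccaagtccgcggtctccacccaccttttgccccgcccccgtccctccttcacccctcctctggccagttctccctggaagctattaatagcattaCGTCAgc
Dusp1, chr17:26508473-26508722, minus strand: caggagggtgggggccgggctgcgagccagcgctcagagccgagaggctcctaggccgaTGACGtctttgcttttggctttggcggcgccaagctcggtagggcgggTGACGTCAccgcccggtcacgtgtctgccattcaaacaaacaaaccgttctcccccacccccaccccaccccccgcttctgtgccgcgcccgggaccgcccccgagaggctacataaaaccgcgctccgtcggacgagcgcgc

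The core was present in 6 of the 8 windows (Fos, Fosb, Junb, Atf3, Dusp1 and Nr4a1), against 17.8% of 32851 RefSeq promoter windows of the same length searched on both strands. The full element TGACGTCA, which holds the core on both strands, was found in Dusp1 alone of the 8, against 1.55% of all windows. The CArG box that SRF binds, searched as its consensus on both strands, was found in Zfp36 alone, against 1.47%, and the AP-1 letters TGACTCA or TGAGTCA in none, against 4.46%. TATAAA or its reverse complement stood in Fos alone, against 12.4% of all windows. These matches describe letters in short windows and nothing more.

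Fos, the founding AP-1 subunit, had the largest lead of a single mouse within each line among the 12 tested probe sets. It read 169, 129 and 127 in overexpressors and 577, 139 and 74.2 in their controls. In the knockout line it read 111, 111 and 185 in knockouts and 381, 97.6 and 113 in controls. In each line a single control mouse, replicate 1, lay far above the other 5, which overlapped. On those arrays Fos was 3.41 times the next highest value in the overexpressor line and 2.06 times in the knockout line. Replicate numbers come from the sample titles, which link no mice across the lines. The fitted log2 fold changes were -0.37 (standard error, SE, 0.54) for overexpressors against controls and -0.26 (SE 0.54) for knockouts against controls, neither called (limma adjusted p = 0.939 and 1.00). The log2 scale used throughout is log2(intensity + 36.92), which understates changes of dim probe sets. A second Fos probe set, left out of the tests as dim, read 21.9 to 44.2, and its highest value of each line stood on the same control mice (44.2 and 37.8).

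Egr1, a zinc-finger factor induced through SRF, repeated this layout. It read 243, 306 and 305 in overexpressors and 866, 294 and 241 in their controls, then 288, 249 and 320 in knockouts and 601, 246 and 266 in their controls. Control replicate 1 was again the highest of its line, by 2.83-fold over the next array in the overexpressor line and 1.88-fold in the knockout line. The log2 fold changes were -0.45 (SE 0.39, adjusted p = 0.918) in overexpressors and -0.24 (SE 0.39, adjusted p = 1.00) in knockouts. A second Egr1 probe set, also left out as dim, read 22.27 to 40.04, and its highest values were on overexpressor 1 and knockout control 3.

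Junb, an AP-1 subunit that often tempers Jun, followed at a smaller amplitude on one of its probe sets. Probe set 102362_i_at read 338, 322 and 329 in overexpressors, against 563, 361 and 292 in controls. It read 288, 282 and 336 in knockouts, against 409, 333 and 315 in controls. Control replicate 1 topped each line, by 1.56-fold and 1.22-fold over the next array. The other Junb probe set, 102363_r_at, was highest on overexpressor control 1 (260) but on knockout control 3 (2205) in the knockout line. Probe set 102363_r_at read 151 to 260 in the overexpressor line and 1627 to 2205 in the knockout line, a gap between lines that 102362_i_at, at 292 to 563 and 282 to 409, did not show. Identifiers ending in _i_at or _r_at mark probe sets designed with relaxed rules. The log2 fold changes were -0.22 and -0.16 in overexpressors (adjusted p = 0.913 and 0.928) and -0.20 and -0.11 in knockouts (adjusted p = 1.00 for each).

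Atf3, a stress-induced member of the ATF/CREB family, had a high value on overexpressor control 1 but on no mouse of the knockout line. Probe set 104155_f_at read 142, 141 and 198 in overexpressors and 422, 224 and 86.5 in controls, with control replicate 1 at 1.88 times the next array. In the knockout line it was flat, at 127, 112 and 134 in knockouts and 132, 120 and 122 in controls. Its log2 fold change was -0.33 in overexpressors (SE 0.33, adjusted p = 0.928) and -0.00 in knockouts (SE 0.33), and the difference between those effects did not pass (-0.33, adjusted p = 0.905). The probe sets for Atf3 disagreed. Probe set 161645_r_at read 250, 249 and 269 in overexpressors, above all controls at 210, 241 and 213, while in the knockout line it read 236, 181 and 210 in knockouts and 256, 224 and 284 in controls. Its log2 fold changes were 0.18 (SE 0.11, adjusted p = 0.913) and -0.25 (SE 0.11, adjusted p = 1.00), with unadjusted p of 0.124 and 0.0451. A further Atf3 probe set, 104156_r_at, was too dim to test and was highest on overexpressor control 1 (146, against 82.7 to 117 on the other 5 arrays of that line).

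**Figure D1:**
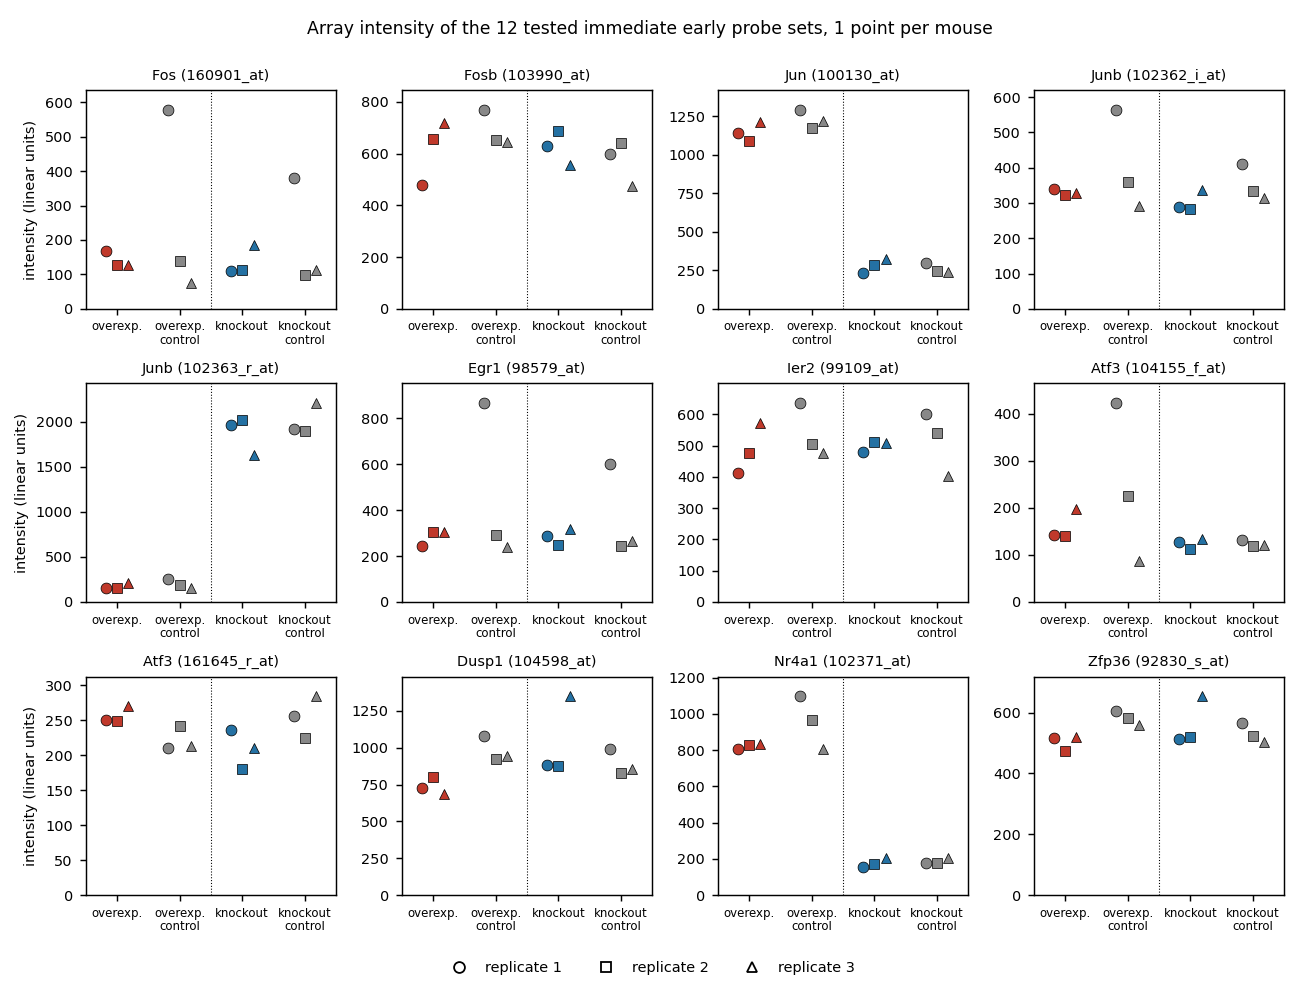
Array intensity (linear units, axis from 0) of the 12 tested probe sets in each mouse, with overexpressors left of their controls and knockouts left of theirs and the marker shape giving the replicate number. Fos reaches 577 and 381 and Egr1 866 and 601 on control replicate 1 of the lines, far above the other points, while Dusp1 peaks at 1348 on knockout 3.

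Fosb, Jun and Ier2 had no array far above the rest of its line. Ier2, a small early-response protein, read 411, 477 and 572 in overexpressors and 635, 505 and 476 in controls. It read 480, 512 and 508 in knockouts and 600, 541 and 403 in controls. Control replicate 1 was the highest in both lines, but by only 1.11-fold each time. Fosb, the Fos paralogue, ranged from 477 to 768 over all 12 arrays, with overlapping groups in both lines. Jun, the main partner of Fos in AP-1, read 1139, 1086 and 1212 in overexpressors against 1288, 1172 and 1221 in controls, and 231, 283 and 326 in knockouts against 296, 246 and 237 in controls. Log2 fold changes of these 3 genes lay between -0.16 and 0.13 in both comparisons.

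Dusp1, which switches off MAP kinases, and Zfp36, which speeds the decay of early-response mRNAs, had another layout. Dusp1 read 726, 804 and 685 in overexpressors and 1076, 920 and 941 in controls, so every overexpressor lay below every control. Its log2 fold change of -0.39 (SE 0.16) had an unadjusted p of 0.0303 and did not pass over all probe sets (adjusted p = 0.913). In the knockout line Dusp1 read 883, 876 and 1348 in knockouts and 988, 828 and 858 in controls. The high value stood on knockout 3 here and not on the control mouse with the highest Fos. The log2 fold change was 0.18 (SE 0.16, adjusted p = 1.00), and -0.01 without knockout 3. The difference between the overexpressor and knockout effects on Dusp1 was -0.57 (SE 0.23, adjusted p = 0.893).

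Zfp36 read 515, 473 and 521 in overexpressors, all below the 607, 584 and 559 of their controls. In the knockout line it read 515, 521 and 653 in knockouts and 565, 525 and 504 in controls, again highest on knockout 3. The log2 fold changes were -0.20 (SE 0.11, adjusted p = 0.913) and 0.07 (SE 0.11, adjusted p = 1.00), the second at -0.03 without knockout 3. Nr4a1, an orphan nuclear receptor induced by cyclic AMP and calcium, read 807, 827 and 832 in overexpressors and 1096, 966 and 809 in controls. It read 156, 172 and 207 in knockouts and 180, 179 and 206 in controls, with overlap in both lines. Jun, Nr4a1 and Junb 102363_r_at all read several-fold apart between the lines. Of all tested probe sets, 330 (4.43%) had line medians over 4-fold apart with no overlap, and no such gap is read as a difference in expression between the lines.

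Over the whole set, 0 of 12 tested probe sets were called in overexpressors by limma, where 0.0805% of 7454 tested probe sets were. In knockouts 0 of 12 were called, where 0.121% of all were. For the difference between the effects 0 of 12 were called, where 0.161% of all were. At an unadjusted p under 0.05 there was 1 in each of the first 2 comparisons, Dusp1 in overexpressors and Atf3 161645_r_at in knockouts, where 4.76% and 3.98% of all tested probe sets had one. For the difference between the effects there were 2, Atf3 161645_r_at (a difference of 0.43) and Dusp1, where 4.94% of all had one. These zero counts lie near the background in every case. Groups that did not overlap were found for 3 of 12 probe sets in overexpressors (Dusp1, Zfp36 and Atf3 161645_r_at), where 8.77% of all tested probe sets separated, and for 0 of 12 in knockouts, where 7.51% did. In overexpressors 11 of 12 had a negative log2 fold change with a median of -0.20, beside 70.3% negative and a median of -0.07 over all tested probe sets. In knockouts 8 of 12 were negative with a median of -0.05, beside 37.0% and a median of 0.04 over all.

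The negative lean depended on single mice. Without overexpressor control 1, 6 of 12 were negative and the median was -0.00, beside -0.05 over all tested probe sets. Fos then stood at 0.34, Egr1 at 0.08, Junb 102362_i_at at 0.02 and Atf3 104155_f_at at 0.12, all with the sign turned. Without knockout control 1, 4 of 12 were negative and the median was 0.10, beside 0.07 over all, with Fos at 0.26 and Egr1 at 0.13, whereas without knockout 3 the count was 11 of 12 and the median -0.04. With quantile normalization 10 of 12 were negative in overexpressors (median -0.11) beside 48.2% of all tested probe sets (median 0.01), and in knockouts 8 of 12 (median -0.10) beside 52.8% (median -0.01). Jun alone of the 12 turned sign under that scaling, at 0.03 in overexpressors. Dusp1 (-0.32) and Zfp36 (-0.17) kept their sign in overexpressors without control 1.

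**Figure D2:**
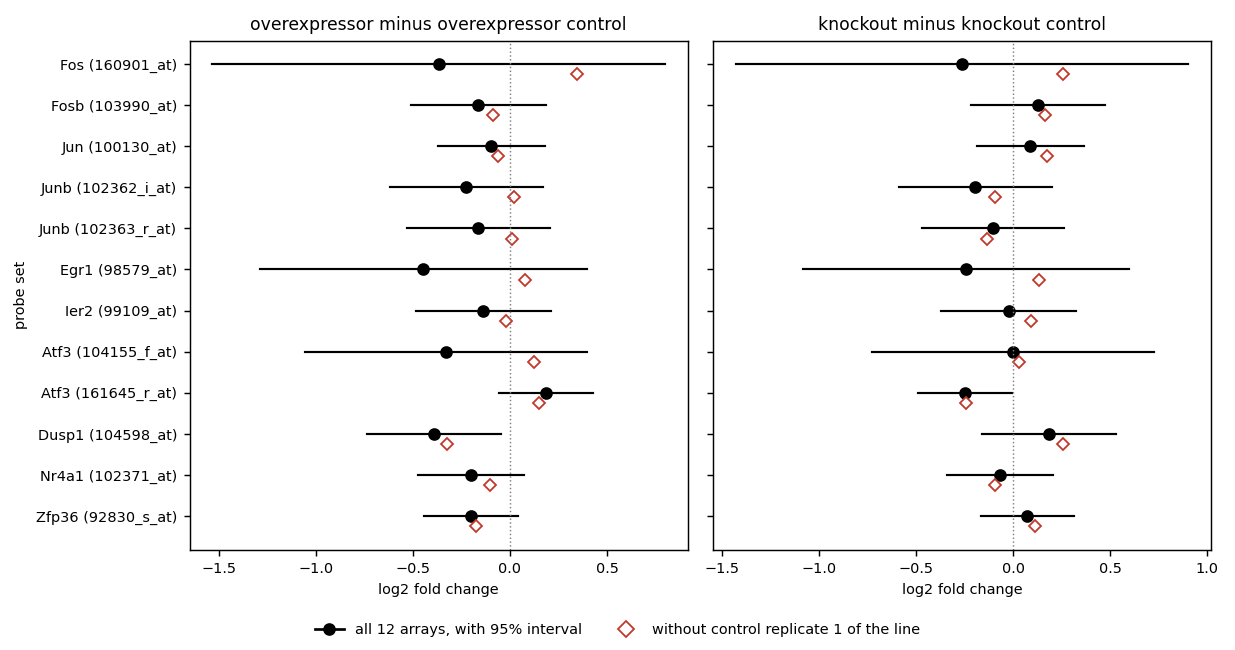
Log2 fold changes of the 12 tested probe sets, overexpressor minus its control on the left and knockout minus its control on the right, with black points and 95% intervals from all 12 arrays and open red diamonds from the fit without control replicate 1 of that line. The Fos diamonds lie at 0.34 and 0.26, right of 0, whereas the black points lie at -0.37 and -0.26.

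Spread between mice of a group set Fos, Egr1 and Atf3 104155_f_at apart from the other 9 probe sets. The root mean square deviation from the 4 group means was 0.80 for Fos, rank 24 of 7454 tested probe sets from the largest. It was 0.57 for Egr1 (rank 74) and 0.49 for Atf3 104155_f_at (rank 120), beside a median of 0.18 over all tested probe sets. Of the 200 tested probe sets nearest in brightness, 197 varied less than Fos, 199 less than Egr1 and 192 less than this Atf3 probe set. Junb 102362_i_at (0.25) came next, and the other 8 probe sets ran from 0.11 for Zfp36 to 0.22 for Junb 102363_r_at.

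Overexpressor control 1 held the highest value of its line for 11 of the 12 probe sets, the exception being Atf3 161645_r_at. This array was bright in general, with the highest value of its line for 39.8% of all tested probe sets. It led by at least 1.5-fold for 4 of 12 (Fos, Egr1, Junb 102362_i_at and Atf3 104155_f_at), against 1.72% of all. In the knockout line the set was split between mice. Knockout control 1 held the highest value for 4 of 12 (Fos, Junb 102362_i_at, Egr1 and Ier2), against 15.8% of all tested probe sets, and knockout 3 for 5 of 12 (Jun, Atf3 104155_f_at, Dusp1, Nr4a1 and Zfp36), against 37.4% of all. Only 4 of the 7454 tested probe sets led by at least 1.5-fold on control replicate 1 of both lines, and they were Fos, Egr1, Mrvi1 and Pcp4l1. This rule was made after the values were seen, so it is a description. Mrvi1, a substrate of cGMP-dependent kinase in smooth muscle, read 222, 201 and 166 in overexpressors and 586, 271 and 132 in controls, then 165, 171 and 281 in knockouts and 464, 293 and 158 in controls.

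**Figure D3:**
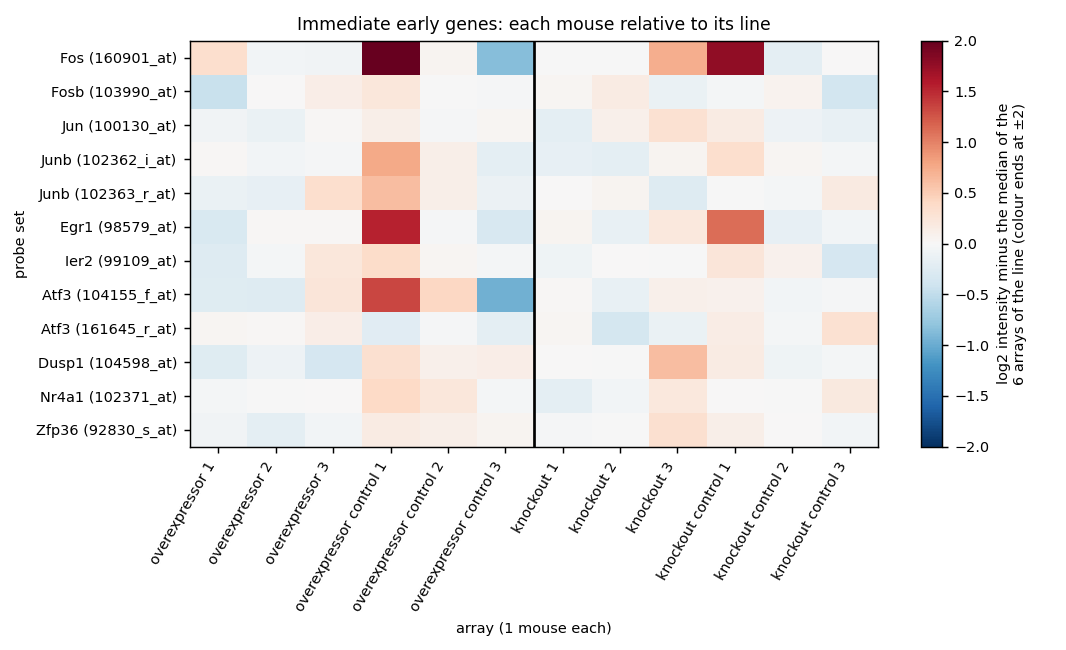
Log2 intensity of the 12 tested probe sets (rows) on each array (columns) minus the median of the 6 arrays of its line, red above and blue below, with the black line between the overexpressor and knockout lines. Fos and Egr1 are deep red on control replicate 1 of each line, and Dusp1 and Zfp36 are reddest in the knockout line on knockout 3.

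Markers of some other cells, though not of all, were highest on control replicate 1 of both lines. The summed intensity of 7 smooth muscle and pericyte markers was 7188, 7443 and 7855 in overexpressors and 13156, 11593 and 7144 in their controls, and 9114, 10145 and 11803 in knockouts and 15213, 12428 and 10599 in their controls, highest on control replicate 1 of both lines. The 8 fibroblast markers did the same, at 17783 to 22131 in overexpressors and 20978 to 30632 in controls, and 17063 to 23338 in knockouts and 19867 to 25452 in controls. On control replicate 1, 6 of 7 smooth muscle and 8 of 8 fibroblast markers were highest of the overexpressor line, against 39.8% of all tested probe sets. In the knockout line 5 of 7 and 5 of 8 were, against 15.8% of all. The 10 macrophage markers (9 tested) summed to 6019 to 6571 in overexpressors and 5522 to 11115 in controls, with overexpressor control 1 highest, and to 4702 to 7040 in knockouts and 4536 to 6833 in controls, with knockout 3 highest. The 9 endothelial markers summed to 4006 to 5496 and 4968 to 5881 in overexpressors and their controls, and to 4033 to 6950 and 4878 to 6159 in knockouts and theirs. The 9 mesothelial and epithelial markers were highest on overexpressor control 1 (5925, with the other 5 arrays at 3167 to 3814). In the knockout line they lay between 2551 and 3262, highest on knockout control 2. The 6 adipocyte markers lay between 17082 and 23977 on all arrays. None of these markers was at the floor throughout a line. Lymphocyte markers (9), blood cell markers (5) and neutrophil and mast cell markers (10, with Mcpt4 at the floor throughout a line) were not highest on control replicate 1 in both lines. In such tissue samples more cells of a type and more RNA per cell cannot be told apart, and the part of any of these cells in the Fos and Egr1 values was not tested.

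The control mice with the highest Fos were also the highest of their lines for the genes outside the set named here, by less than for Fos. Those genes were picked for their correlation, which takes no account of amplitude. On overexpressor control 1 Tcf21 read 500, against 256 to 286 on the other arrays of its line, and Slpi 640, against 516 to 606. With the 4 group means removed, the probe set most like Fos over 12 arrays was Junb 102362_i_at (Pearson r = 0.963, Spearman rho = 0.937) and Egr1 ranked 3 (r = 0.953, rho = 0.916) among all tested probe sets. The 5 most similar outside the set were Rgs10, which quenches G protein signals (r = 0.956, rho = 0.888), Slc8a1, a sodium-calcium exchanger (0.953 and 0.888), Fgfr2, a fibroblast growth factor receptor (0.949 and 0.874), Ten1 of the telomere-capping CST complex (0.944 and 0.909) and Evi2a (0.944 and 0.888). Without control replicate 1 of both lines, r with Fos was 0.910 for Junb, 0.422 for Egr1 and between 0.735 and 0.886 for those 5. The 5 most similar to Egr1 outside the set, with Fos ranked 2 (r = 0.953) and Junb 102362_i_at ranked 6 (0.924) among all tested probe sets, were Slpi, a secreted protease inhibitor (r = 0.957, rho = 0.888), Prr13 (0.950 and 0.916), Tcf21, a transcription factor of stromal precursors (0.947 and 0.811), Folr2, a folate receptor of tissue macrophages (0.928 and 0.902), and Col5a1, a chain of type V collagen (0.923 and 0.797). Without both control mice r with Egr1 was 0.938 for Prr13 but between -0.16 and 0.486 for the other 4. Dusp1 (r = 0.569), Nr4a1 (0.574), Zfp36 (0.564), Jun (0.555) and Fosb (0.167) had lower r with Fos over the 12 arrays. So did Atf3 104155_f_at (0.754), Ier2 (0.591), Junb 102363_r_at (0.414) and Atf3 161645_r_at (-0.065). Without both control mice r with Fos was 0.831 for Nr4a1, 0.718 for Zfp36, 0.590 for Dusp1, 0.389 for Jun and -0.562 for Fosb. It was 0.599 for Atf3 104155_f_at, 0.281 for Atf3 161645_r_at, -0.201 for Ier2 and -0.226 for Junb 102363_r_at. Nr4a1, Zfp36, Atf3 104155_f_at and Dusp1 then stood above Egr1. These correlations describe 12 arrays that differed in brightness and in cell markers, and the part of either in them was not tested.

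Other early-response genes were described from a list of 41, of which 37 had a probe set naming a single gene and 30 were tested. None was called in overexpressors (10 higher, 20 lower, median -0.13) or in knockouts (13 higher, 17 lower, median -0.02), and an unadjusted limma p under 0.05 was reached by 3 and 0, beside 4.76% and 3.98% of all tested probe sets. The 3 were Cebpd, an adipogenic and acute-phase factor, Sgk1, a kinase induced by glucocorticoid and serum, and the antiproliferative gene Tob1. Cebpd read 213, 307 and 223 in overexpressors, all below the 700, 491 and 375 of controls (log2 fold change -0.95, SE 0.35, adjusted p = 0.901). Sgk1 read 364, 401 and 380 in overexpressors and 800, 703 and 457 in controls (-0.69, adjusted p = 0.913). Tob1 read 876, 1564 and 1326 in overexpressors and 820, 822 and 907 in controls (0.51, adjusted p = 0.913).

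In the knockout line the highest values of the list, like those of the set, lay on several mice. Knockout 3 held the highest value for 12 of 30, near its share of 37.4% of all tested probe sets. Among these were Sgk1, Klf4 and Cebpd. Sgk1 read 407, 398 and 916 in knockouts, against 517, 531 and 318 in controls. Klf4 read 430, 527 and 927 against 549, 640 and 533, and Cebpd 274, 338 and 726 against 402, 600 and 241. Knockout control 1 held the highest value for 7 of 30, against 15.8% of all. Of these, Ier3, Gadd45g, Zfp36l1 and Pim1 were also highest on overexpressor control 1, which is 4 of 30 against 7.62% of all. Their leads on knockout control 1 were small, from 1.01-fold (Gadd45g) to 1.08-fold (Pim1) over the next array. By at least 1.5-fold in both lines it was 0 of 30, against 0.054% of all. Klf4, Ier3, Gadd45g, Zfp36l1 and Pim1 are named after their values were seen. Overexpressor control 1 held the highest value of its line for 21 of 30, against 39.8% of all tested probe sets. Of 7 further genes too dim to test, 3 were highest on control replicate 1 of both lines, beside 7.62% of all tested probe sets. They were Ptgs2, the inducible cyclooxygenase, Myc and the matricellular gene Ccn1. Myc led by little in the overexpressor line (111.8, against 109.5 on control 2). Nfkbiz, Nr4a2, Il6 and Maff were not highest on both, and Maff was lowest on control replicate 1 of both lines (54.5 and 67.5). All 7 are named after their values were seen. Ptgs2 was at the floor on 9 arrays and read 62.9 on overexpressor control 1, 36.3 on knockout control 1 and 24.9 on knockout 3. Ccn1 read 65.8, 57.2 and 103 in overexpressors and 143, 58.1 and 36.9 in controls, then 36.3, 48.4 and 110 in knockouts and 124, 85.7 and 38.9 in controls.

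In the knockout comparison the listed early genes with the smallest p were Dusp6, a phosphatase for ERK (356, 395 and 354 in knockouts, against 348, 281 and 188 in controls, log2 fold change 0.42), Gadd45a (177, 232 and 259 against 291, 267 and 293, -0.31) and Tob1 (0.35), each at a limma adjusted p of 1.00. The kinases and factors upstream, 9 tested of 20 listed, showed no calls by limma and 0 at an unadjusted p under 0.05, with medians of -0.02 in overexpressors and -0.00 in knockouts. Those with the smallest p were Atf2 (-0.13), Map2k2 (0.12) and Egfr (-0.08) in overexpressors, and Elk1 (0.27), Map2k1 (0.20) and Map2k2 (-0.10) in knockouts.

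Heat shock genes, which report protein-folding stress, did not follow Fos in the knockout line. Of 15 listed, 11 were tested and 0 were called in either comparison, with medians of -0.20 in overexpressors and -0.03 in knockouts and 1 and 0 at an unadjusted limma p under 0.05, beside the same shares of all tested probe sets. Knockout control 2 held the highest value of its line for 9 of 11 and knockout control 1 for 0 of 11, against 14.0% and 15.8% of all. The leads on knockout control 2 were small, at most 1.24-fold over the next array (Hsph1). By at least 1.5-fold 0 of 11 led there, against 0.174% of all. In the overexpressor line 9 of 11 were highest on control 1, against 39.8% of all tested probe sets. By at least 1.5-fold it was 1 of 11, against 1.72% of all. Hspa1a, an inducible Hsp70, read 153, 110 and 133 in overexpressors and 315, 206.5 and 127 in controls (log2 fold change -0.52, SE 0.22, adjusted p = 0.913), and 234, 201 and 245 in knockouts against 274, 327 and 260 in controls (-0.30, adjusted p = 1.00). Its near-identical copy Hspa1b stood at -0.35 and -0.36, and the probe sets may not tell the copies apart. Dnaja1, a co-chaperone, stood at -0.26 in overexpressors and Hsph1 at -0.19 in knockouts.

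**Figure D4:**
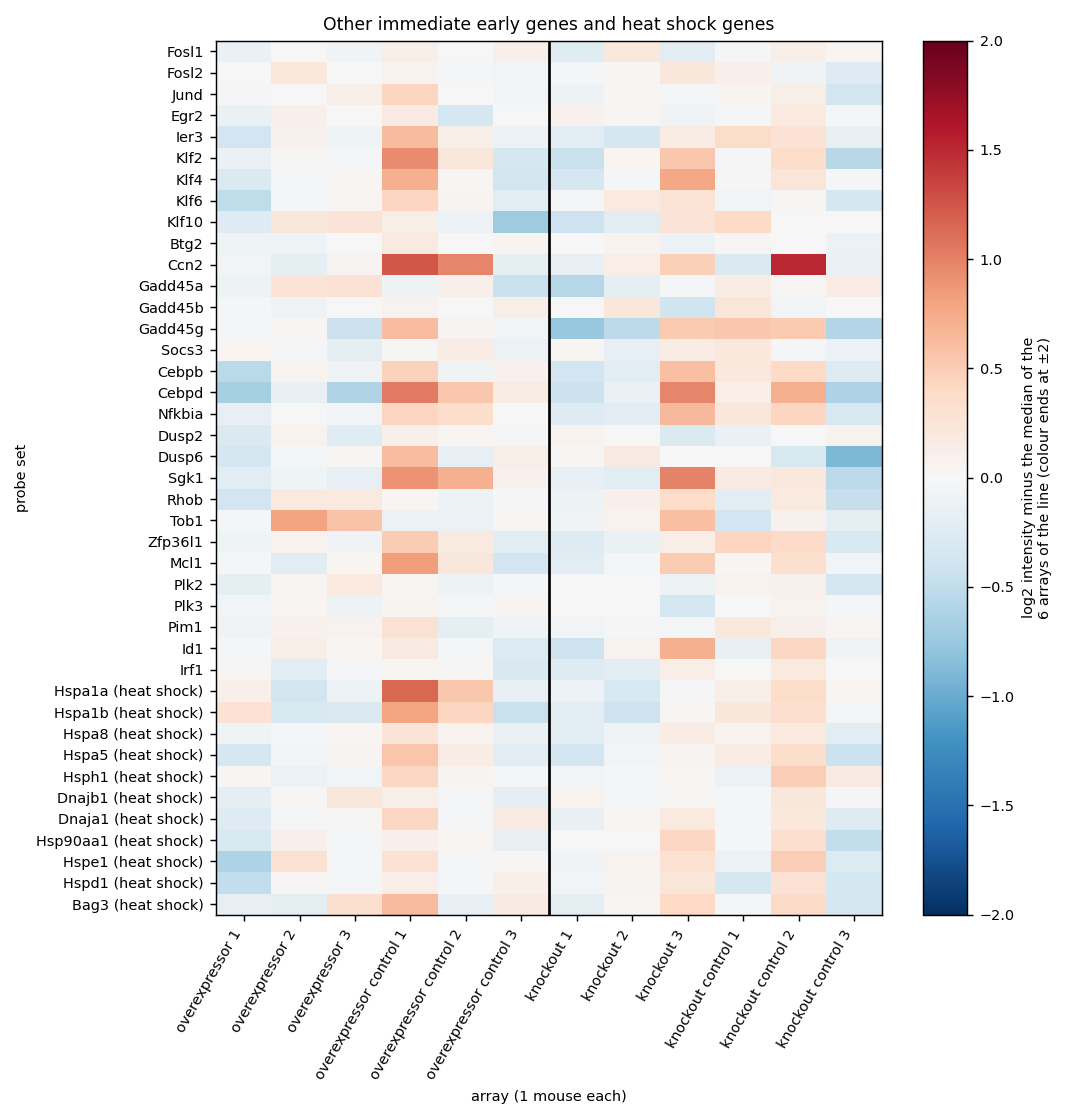
Log2 intensity of 30 other early-response genes and 11 heat shock genes (rows) on each array minus the median of the 6 arrays of its line, red above and blue below. Overexpressor control 1 is red across most rows, while in the knockout line Sgk1, Klf4 and Cebpd are reddest on knockout 3 and Ccn2 on knockout control 2.

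Array medians ran from 185.8 to 219.4, the highest on overexpressor control 1, and no array was identical to another. The labels were checked on Slc2a4, the gene for Glut4, which read 625, 1110 and 1042 in overexpressors and 639, 583 and 1212 in controls (log2 fold change 0.22), and 378, 365 and 363 in knockouts against 416, 514 and 614 in controls (-0.43). All knockouts lay below all of their controls and the overexpressors overlapped theirs, neither difference passed (limma adjusted p = 1.00 and 0.930), and where the probes lie relative to the transgene or the deleted part is unstated, so this checks no label.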

How the data were processed

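Total RNA from perigonadal fat was hybridised to Affymetrix arrays, per the labels' protocols. Each deposited value is the linear intensity of 1 probe set. How the authors summarised, scaled and background-corrected these intensities is unstated in the labels. Groups came from the sample titles, because the genotype field repeats the mutant's name for controls. Replicate samples are separate mice by the series' design text.

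Values were transformed as log2(intensity + 36.92), the 10th percentile of the table. The 4968 probe sets (40%) with the lowest mean over 12 arrays were left out and 7454 were tested. A linear model with a mean for each of 4 groups was run over the tested probe sets in limma (version 3.58.1, R version 4.3.3), moderated by eBayes with an intensity trend (8 residual degrees of freedom), with two-sided p adjusted by Benjamini-Hochberg over all tested probe sets at 0.05. The fit was tested on simulated data. An exact permutation test of 3 against 3 cannot go below 0.1 and was not used. The number of arrays limits precision. Figures used matplotlib 3.10.9 in Python 3.11.15.

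Of 12422 probe sets, 10833 had 1 gene symbol, 396 several and 1193 none, and 10817 matched RefSeq by gene ID. A listed gene outside the set was stood for by its brightest probe set. Named were all probe sets of the set, up to 3 genes per list and comparison with the smallest p, the 5 most like Fos and Egr1, Slc2a4, and others said to be chosen later. The set and lists were chosen with earlier results of these data known. Same-numbered mice of a line did not deviate together (correlation -0.35 to 0.02), so numbers do not pair them. Alternatives changed the constant, the dim filter, the normalization, the arrays, the variance prior and the pairing.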

Additional observations from a re-analysis of the deposited data

How the results depend on the processing

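None of the 12 probe sets was called by limma in either comparison under the 22 alternatives, of which leaving out the lowest 60% tested only 9 (without Fos and both Atf3 probe sets) (1 in each had an unadjusted p under 0.05 in the fit as reported), the smallest adjusted p being 0.167 for Atf3 104155_f_at in overexpressors without their control 3 and 0.841 for Jun without knockout 1. Over the whole table the overexpressor count of 6 became 11 with quantile normalization and with array medians subtracted, 1 on the 6 arrays of the line alone, and 3 to 21 with 1 array left out (3 without overexpressor control 2, 21 without control 3). The knockout count of 9 became 0 with the replicate block. The count of 12 for the difference between effects became 1 with no filter on dim probe sets, 1 with the replicate block, and 1 to 13 with 1 array left out. Same-numbered mice did not pair, and the replicate block moved no count of the 12 probe sets. Leaving both control 1 arrays out together was chosen after seeing the data. It gave log2 fold changes in overexpressors of 0.34 for Fos, 0.0187 for Junb 102362_i_at, 0.0126 for Junb 102363_r_at, 0.0795 for Egr1 and 0.12 for Atf3 104155_f_at, and in knockouts of 0.26 for Fos, 0.13 for Egr1, 0.0889 for Ier2 and 0.0295 for Atf3 104155_f_at, all with the sign turned. Jun turned to 0.0319 in overexpressors with quantile normalization. With 1 array left out, log2 fold changes that turned sign ranged as follows: in overexpressors Fos -0.89 to 0.34, Junb 102362_i_at -0.41 to 0.019, Junb 102363_r_at -0.30 to 0.013, Egr1 -0.77 to 0.080, Atf3 104155_f_at -0.83 to 0.12; in knockouts Fos -0.56 to 0.26, Jun -0.015 to 0.20, Egr1 -0.45 to 0.13, Ier2 -0.18 to 0.089, Atf3 104155_f_at -0.046 to 0.055, Dusp1 -0.015 to 0.29, Nr4a1 -0.16 to 0.0078, Zfp36 -0.033 to 0.13, Elk1 -0.019 to 0.52, Map2k1 -0.041 to 0.37. The cause was not tested. Probe sets near the floor, including the second ones for Fos and Egr1, limit what can be read at low signal, and 3 arrays per group limit precision.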
